A study of Mus musculus with 6 samples.

Results

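The genes described here are the enzymes of cholesterol synthesis and the proteins that sense, carry, esterify, take up and release cholesterol, measured in livers that lacked or kept KEAP1. The list held 29 genes chosen by name for their role in cholesterol metabolism, with earlier results of these data known. Each was represented by its brightest probe set that carries its symbol alone. Of the 29 genes, 27 had such a probe set and all 27 passed the filter on dim signal, among 13027 genes tested and 18193 with a probe set of their own on the array. Acat2, the cytosolic thiolase that joins acetyl-CoA units, and Soat2, the hepatic enzyme that esterifies cholesterol, had no probe set of their own and were not analysed here.

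Liver RNA from 3 conditional Keap1 knockout mice (CKO, Alb-Cre:Keap1(flox/-), replicates 3, 4 and 5) was compared with that from 3 control mice (Alb-Cre:Keap1(flox/+), replicates 1, 2 and 3) on single-colour Affymetrix arrays. All 6 mice were males aged 9 weeks and had received vehicle alone, which was 10% DMSO, 10% Cremophor-EL and 80% PBS. Cre was driven by the albumin promoter, which is active in hepatocytes, so the floxed allele was a target in hepatocytes of both groups, while the null allele of the CKO mice was present in every cell. One mouse was used per array, and the labels do not say whether the mice came from separate litters. In whole liver, fewer cells of a type and less RNA per cell cannot be told apart.

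KEAP1 holds the transcription factor NRF2 at a low level, and its loss lets NRF2 accumulate. Hepatocytes build cholesterol from acetyl-CoA through mevalonate, farnesyl diphosphate, squalene and lanosterol, and most enzymes of this route are under the control of SREBP-2, the product of Srebf2. When sterols are scarce, SCAP escorts SREBP-2 from the endoplasmic reticulum to the Golgi for cleavage, and when sterols are plentiful, INSIG proteins hold SCAP back. Insig1 and Stard4 are themselves known SREBP targets, so their transcripts belong to the same sterol-regulated programme as the enzymes.

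Keap1 itself had a signal of 326.2, 151.4 and 213.6 in CKO livers, against 785.9, 843.1 and 699.8 in control livers. Its mean was 230 ± 88.6 in CKO livers and 776 ± 72.1 in control livers (SD, n = 3 each), or 29.7% of control, with a log2 difference of -1.74 ± 0.24 (SE; limma, adjusted p = 0.0118). The 2 groups did not overlap. A second Keap1 probe set differed by -0.71 on the log2 scale (adjusted p = 0.223 over all probe sets). Keap1 was called in 3 of the 6 fits that left out 1 array. Without control 1, 2 or 3 it was read from that second probe set instead, and its log2 difference of -0.78 to -0.66 did not pass.

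Cholesterol genes lay mostly lower in CKO livers. Of the 27 measured genes, 23 (85.2%) lay below and 4 above the control mean, compared with 52.8% of all genes tested lying below it. The median log2 difference, CKO minus control, was -0.43 over the 27 genes and -0.02 over all genes tested, and single genes ranged from -1.22 for Insig1 to 0.44 for Insig2. After Benjamini-Hochberg adjustment over all genes tested, 2 genes fell (Insig1 and Stard4) and 0 rose, whereas 0.944% of all genes were called lower and 1.04% higher in CKO livers at an adjusted p under 0.05. Over all genes this was 135 higher and 123 lower, a split that depends on the scaling, with 137 higher and 74 lower after median centring and 83 higher and 304 lower after scaling to the hybridisation controls. At an unadjusted p under 0.05, 9 of the 27 genes (33.3%) were lower and 1, Scap, was higher, against 7.76% of all genes lower and 7.45% higher. The 3 CKO values lay wholly below the 3 control values for 7 genes and wholly above them for 0, while 10.9% of all genes tested were separated in the lower direction and 10.3% in the higher direction. The 7 separated genes were Insig1, Fdps, Stard4, Sc5d, Nsdhl, Fdft1 and Pmvk.

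**Figure D1:**
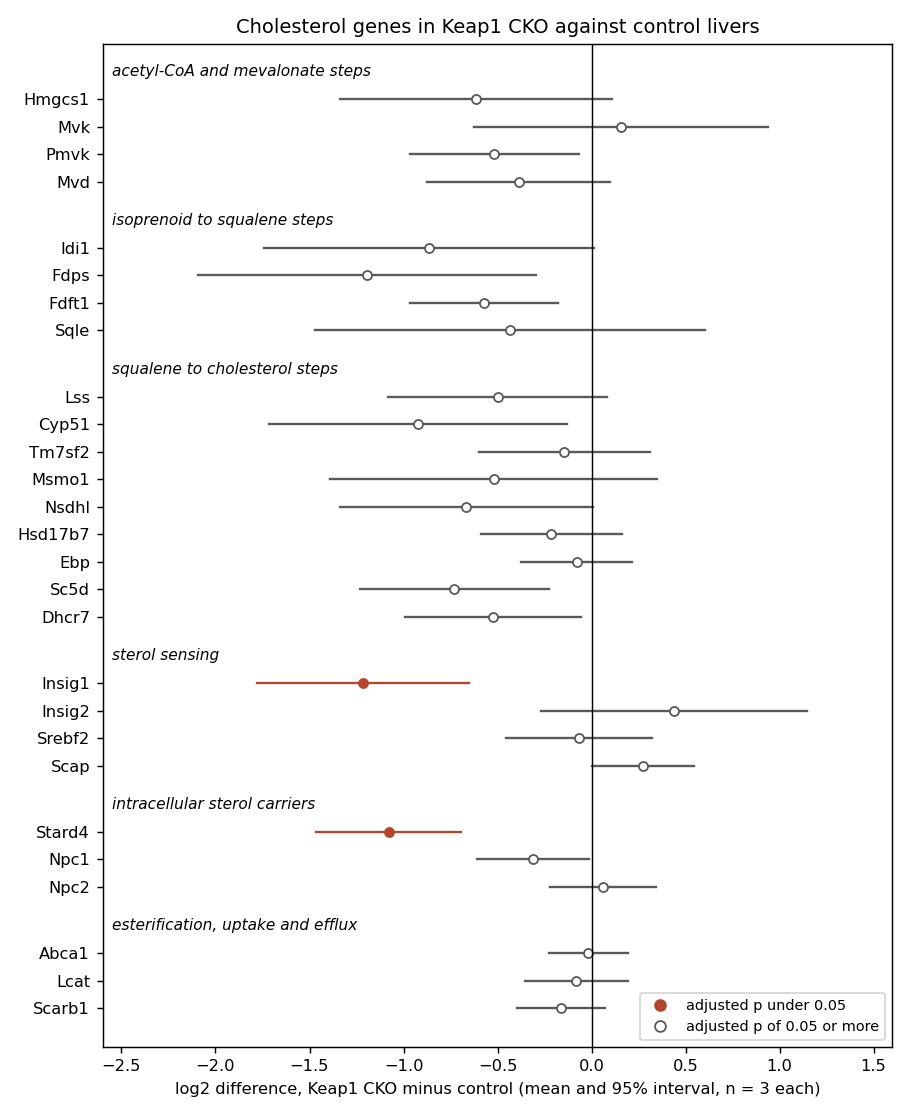
Log2 difference of CKO minus control livers for the 27 measured cholesterol genes, ordered by role, with 95% confidence intervals from limma (n = 3 arrays a group). Insig1 and Stard4 passed the adjusted threshold, and 23 of the 27 genes lie below 0.

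The enzymes of synthesis made up 16 of the 23 genes below control, and 17 of the 27 measured genes. Of the 17 measured enzymes, 16 lay below the control mean and 5 were separated lower, against 52.8% and 10.9% of all genes tested. Their median log2 difference was -0.52, but none passed the adjusted threshold. At an unadjusted p under 0.05 in limma, 6 enzymes were lower, against 7.76% of all genes. The other 10 genes had a median of -0.07. By step, the median was -0.45 for the 4 acetyl-CoA and mevalonate enzymes. It was -0.72 for the 4 enzymes from isoprenoid units to squalene, with the squalene epoxidase Sqle counted among them. For the 9 enzymes after Sqle, up to cholesterol, the median was -0.52. It was 0.10 for the 4 sensing proteins, -0.31 for the 3 intracellular carriers, and -0.08 for the 3 proteins of esterification, uptake and efflux.

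Promoter sequences of 4 of the measured genes are shown as examples, because SREBP-2 is known to act together with NF-Y at many genes of this route. RefSeq promoter windows (GRCm38.p6), running from 250 bases before to 50 bases after the gene start, were matched by symbol for 21 of the 27 genes. None was matched for Fdps, Fdft1, Stard4, Npc1, Sqle and Scarb1, so the motif shares leave these genes out. Among them, Fdps, Fdft1 and Stard4 had separated groups, and Stard4 was called. For Insig1, Sc5d and Nsdhl, which are among the genes separated from control, and for Hmgcs1, the only one of the 21 with a classical sterol regulatory element core, the 250 bases upstream of the start are given 5′ to 3′ on the gene's own strand. Capitals mark matches on either strand. The motifs searched were the core of the sterol regulatory element, TCACNCCAC, then the NF-Y box, written CCAAT, and finally the E-box, written CACGTG. The windows are chr5:28071162-28071411 on the plus strand for Insig1, chr9:42264301-42264550 on the minus strand for Sc5d, chrX:72918271-72918520 on the plus strand for Nsdhl, and chr13:119690101-119690350 on the plus strand for Hmgcs1.
Insig1: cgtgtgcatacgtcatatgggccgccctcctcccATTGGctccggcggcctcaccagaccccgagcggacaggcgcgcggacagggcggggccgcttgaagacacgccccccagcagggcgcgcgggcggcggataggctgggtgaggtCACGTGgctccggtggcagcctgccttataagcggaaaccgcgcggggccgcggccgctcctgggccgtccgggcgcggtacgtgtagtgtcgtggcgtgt
Sc5d: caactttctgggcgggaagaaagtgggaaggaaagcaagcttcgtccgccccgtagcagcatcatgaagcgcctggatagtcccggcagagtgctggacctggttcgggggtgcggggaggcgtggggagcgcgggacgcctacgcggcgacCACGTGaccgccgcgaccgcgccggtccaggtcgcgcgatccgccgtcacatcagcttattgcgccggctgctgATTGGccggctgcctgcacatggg
Nsdhl: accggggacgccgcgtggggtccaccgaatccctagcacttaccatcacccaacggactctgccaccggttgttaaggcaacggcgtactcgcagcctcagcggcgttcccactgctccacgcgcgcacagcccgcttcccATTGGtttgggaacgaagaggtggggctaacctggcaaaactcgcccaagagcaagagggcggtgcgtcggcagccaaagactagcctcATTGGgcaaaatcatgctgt
Hmgcs1: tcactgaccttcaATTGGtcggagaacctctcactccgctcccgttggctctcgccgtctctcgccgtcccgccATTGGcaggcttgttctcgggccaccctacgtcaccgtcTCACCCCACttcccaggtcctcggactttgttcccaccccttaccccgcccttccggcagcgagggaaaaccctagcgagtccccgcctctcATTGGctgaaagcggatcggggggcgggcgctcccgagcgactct

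CCAAT was present in 19 of the 21 windows (90.5%), all except those of Abca1 and Scap, and in 41.1% of the windows of 27025 genes and 42.1% of those of the 10494 other genes tested. The E-box was present in 6 windows (28.6%), those of Abca1, Dhcr7, Hsd17b7, Insig1, Sc5d and Scap, against 8.09% of all windows and 11.3% of those of the other genes tested. The sterol element core was present in the Hmgcs1 window alone (1 of 21), from 137 to 129 bases before the start, and in 1.44% of all windows. In Insig1 the E-box lay from 101 to 96 bases before the start, and in Sc5d from 98 to 93 bases before it. In the 4 windows printed, matches to different motifs do not overlap, and a match records letters, not binding.

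Among the sensing proteins 1 gene, Insig1, passed the threshold and fell. Insig1, which retains SCAP in the endoplasmic reticulum, had a signal of 2854.3, 1881.3 and 3261.4 in CKO livers, against 8525.8, 4732.6 and 5506.0 in control livers. Every CKO liver lay below every control liver, and the control 1 liver was the highest of the 6. Insig1 averaged 2666 ± 709 in CKO livers and 6255 ± 2004 in control livers (SD, n = 3 each), or 42.6% of control. The log2 difference was -1.22 ± 0.25 (SE; 95% interval -1.78 to -0.65; limma, adjusted p = 0.0479). The Insig1 promoter printed above carries an E-box and a CCAAT match. The call rested close to the threshold and was made in 7 of 19 alternative settings. It was lost whichever of the 6 arrays was left out, with adjusted p between 0.0569 and 0.114, and the log2 difference then lay between -1.39 and -0.97.

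Insig2 encodes the second INSIG protein, and a liver transcript of it is known to be lowered by insulin. It had a signal of 8659.2, 6112.4 and 6451.2 in CKO livers, against 7865.2, 2963.1 and 5866.0 in control livers. The groups overlapped, and the log2 difference of 0.44 had an interval from -0.27 to 1.14 (limma, adjusted p = 0.551). The other Insig2 probe sets tested differed by 0.21 and 0.03. Scap averaged 2452 ± 251 in CKO livers and 2027 ± 226 in control livers, a log2 difference of 0.27 that did not pass (adjusted p = 0.322). Srebf2, the gene of the transcription factor itself, averaged 495 ± 70.3 in CKO livers and 521 ± 97.7 in control livers, with a log2 difference of -0.07 (adjusted p = 0.900). The other Srebf2 probe set tested differed by -0.29 (limma, adjusted p = 0.440 over all probe sets).

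Of the carriers, Stard4 fell. STARD4 is a soluble protein that moves cholesterol between membranes. Stard4 had a signal of 867.7, 916.9 and 1147.2 in CKO livers, against 2579.7, 2023.0 and 1688.2 in control livers. The groups did not overlap, and the lowest control liver was well clear of the highest CKO liver. The mean was 977 ± 149 in CKO livers and 2097 ± 450 in control livers (SD, n = 3 each), or 46.6% of control, with a log2 difference of -1.08 ± 0.17 (SE; 95% interval -1.46 to -0.69; limma, adjusted p = 0.0178). Its 2 other probe sets differed by -1.06 (adjusted p = 0.0392 over all probe sets) and -0.63 (adjusted p = 0.0696), so all 3 lay lower in CKO livers. The call was made in 15 of 19 alternative settings, among them 3 of the 6 fits that left out 1 array, and it was lost without CKO 3 (adjusted p = 0.0729), CKO 4 (adjusted p = 0.0536) or control 2 (adjusted p = 0.0559).

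The lysosomal proteins NPC1 and NPC2 pass cholesterol from endocytosed lipoproteins to the rest of the cell. Npc1 averaged 1309 ± 133 in CKO livers and 1633 ± 228 in control livers, with a log2 difference of -0.31 (adjusted p = 0.305). Npc2 averaged 3224 ± 73.8 in CKO livers and 3122 ± 493 in control livers, with a log2 difference of 0.06 (adjusted p = 0.878). Neither gene passed the test.

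**Figure D2:**
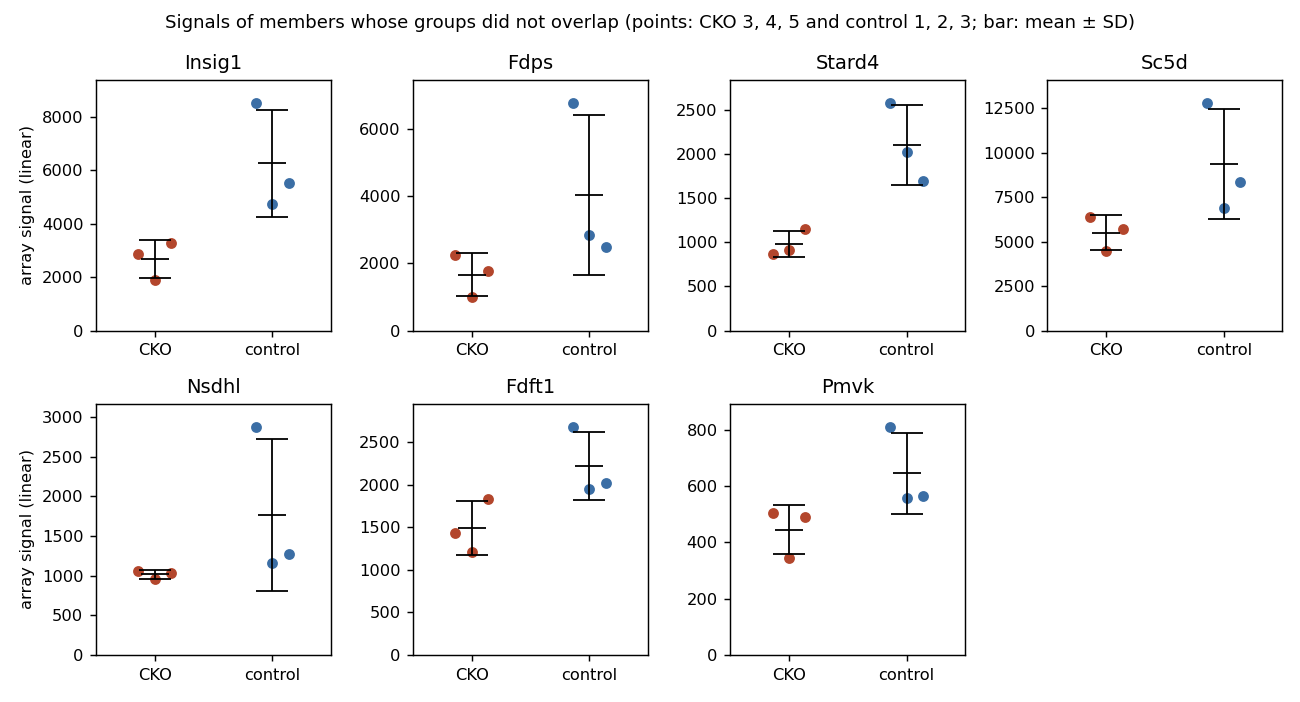
Array signal on a linear axis for each of the 3 CKO and 3 control livers (points, with bars for mean ± SD) in the 7 cholesterol genes whose groups did not overlap. In each gene the 3 CKO points lie below the 3 control points, and the control 1 point is the highest.

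The mevalonate steps begin with HMG-CoA synthase, the product of Hmgcs1. Hmgcs1 had a signal of 4224.9, 2581.6 and 4789.2 in CKO livers, against 9517.5, 4431.8 and 4457.5 in control livers. The groups overlapped, because the CKO 5 liver lay above 2 of the control livers, and the log2 difference of -0.61 ± 0.32 did not pass (SE; limma, adjusted p = 0.408). The 3 other Hmgcs1 probe sets tested differed by -0.65, -0.70 and -0.30. Pmvk, the kinase that adds the second phosphate to mevalonate, had a signal of 502.3, 344.6 and 488.3 in CKO livers, against 809.8, 558.7 and 565.4 in control livers. Its groups were separated with a log2 difference of -0.52 ± 0.20 (adjusted p = 0.254). Mvk, the first mevalonate kinase, was the only enzyme above control, at 251 ± 81.8 in CKO livers and 229 ± 104 in control livers (log2 difference 0.16, adjusted p = 0.883). Mvd, the decarboxylase that forms isopentenyl diphosphate, had a log2 difference of -0.39 (adjusted p = 0.436).

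Among the 4 enzymes from isoprenoid units up to and including Sqle, Fdps had the lowest log2 difference. Fdps, which makes farnesyl diphosphate, had a signal of 2245.3, 987.7 and 1757.7 in CKO livers, against 6778.6, 2846.3 and 2469.4 in control livers. The groups were separated, but the control 1 liver stood far above the other control livers. The mean was 1664 ± 634 in CKO livers and 4031 ± 2387 in control livers, or 41.3% of control. The log2 difference of -1.20 ± 0.40 did not pass (SE; 95% interval -2.09 to -0.30; limma, adjusted p = 0.192). Fdft1, squalene synthase, had a signal of 1432.4, 1214.0 and 1830.6 in CKO livers, against 2682.4, 1954.9 and 2025.8 in control livers. These values were also separated, with a log2 difference of -0.57 ± 0.17 (adjusted p = 0.160), but the other 2 Fdft1 probe sets tested gave -0.30 and 0.28. Idi1, the isomerase of isopentenyl diphosphate, averaged 934 ± 298 in CKO livers and 1887 ± 1236 in control livers, a log2 difference of -0.86 (adjusted p = 0.336). Sqle, the epoxidase that oxygenates squalene, differed by -0.43 (adjusted p = 0.711), and by 0.16 when the control 1 liver was left out.

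After Sqle, all 9 enzymes on the way to cholesterol lay below the control mean. Cyp51, the demethylase of lanosterol, had a signal of 573.1, 264.1 and 606.2 in CKO livers, against 1322.2, 821.5 and 606.2 in control livers. The CKO 5 and control 3 livers shared the value 606.2, so the groups touched, and the log2 difference of -0.92 ± 0.35 did not pass (SE; limma, adjusted p = 0.251). The other Cyp51 probe set tested also differed by -0.92 (limma, adjusted p = 0.180 over all probe sets), and it separated the groups. Nsdhl, a dehydrogenase in the removal of sterol methyl groups, had a signal of 1058.0, 958.0 and 1030.1 in CKO livers, against 2878.6, 1154.6 and 1272.1 in control livers. Its groups were separated, with a log2 difference of -0.67 ± 0.30 (adjusted p = 0.335), and the control 1 liver stood far above the other 5 livers. The remaining genes of these steps did not pass either: Lss (lanosterol synthase) differed by -0.50, Msmo1 (the methylsterol oxidase) by -0.52, Dhcr7 (the reductase of the last step) by -0.53, Hsd17b7 (a ketosterol reductase) by -0.21, Tm7sf2 (a sterol reductase) by -0.15 and Ebp (the sterol isomerase) by -0.08.

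Sc5d, the desaturase that acts shortly before the last step, gave different results from its 3 probe sets. The brightest, which represented the gene, had a signal of 6388.7, 4455.9 and 5694.7 in CKO livers, against 12831.8, 6896.4 and 8376.1 in control livers. Its groups were separated, and the log2 difference of -0.73 ± 0.22 did not pass (SE; 95% interval -1.23 to -0.23; limma, adjusted p = 0.161). The probe set 1434520_at, singled out after its values were seen, had a signal of 1407.2, 1197.0 and 1346.9 in CKO livers, against 4142.2, 3306.0 and 3342.9 in control livers. This probe set fell by 1.43 on the log2 scale (SE 0.12; limma, adjusted p = 0.000707 over 27022 probe sets). Of all probe sets, 0.714% were called lower at an adjusted p under 0.05. The probe set 1434520_at kept its call in all 6 fits that left out 1 array, where the log2 difference lay between -1.49 and -1.33. The third probe set, 1424709_at, had a signal of 805.9, 767.2 and 661.5 in CKO livers, against 1186.7, 1203.8 and 1112.3 in control livers, and fell by 0.64 (adjusted p = 0.0349), a call lost in each of the 6 fits without 1 array. All 3 probe sets separated the groups, and which transcripts each of them reads was not tested.

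Across the whole list, 24 further probe sets of 14 genes passed the filter. Of these, 20 had the same sign as the brightest probe set of their gene and 4 had the opposite sign, 2 of Abca1 and 1 each of Fdft1 and Hsd17b7. Of the 24, 3 were called, the pair of Sc5d and the one of Stard4 given above, all lower.

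The proteins of esterification, uptake and efflux lay close to control. Scarb1, the receptor for high-density lipoprotein, had the largest difference of the group, with a signal of 4897.9, 4838.5 and 4859.0 in CKO livers, against 6029.1, 4813.9 and 5568.2 in control livers. The control 2 liver lay below all CKO livers, so the groups overlapped, and the log2 difference was -0.16 (limma, adjusted p = 0.501). Abca1, which exports cholesterol to apolipoprotein A-I, had a log2 difference of -0.02 with an interval from -0.23 to 0.20. Lcat, the secreted plasma enzyme that esterifies cholesterol on lipoproteins, had a log2 difference of -0.08 (adjusted p = 0.805).

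For most cholesterol genes the same 2 livers, control 1 and CKO 4, stood at the ends of the range. The control 1 liver was the highest of the 6 for 21 of the 27 genes (77.8%) and for 16 of the 17 enzymes, against 13.3% of all genes tested. The CKO 4 liver was the lowest for 16 of the 27 genes (59.3%) and for 13 of the 17 enzymes, against 20.7% of all genes. The SD within the control group exceeded that within the CKO group for 24 of the 27 genes (88.9%), compared with 52.0% of all genes. The median SD on the log2 scale was 0.26 in CKO livers and 0.44 in control livers over the 27 genes, and 0.18 in CKO livers and 0.19 in control livers over all genes tested.

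**Figure D3:**
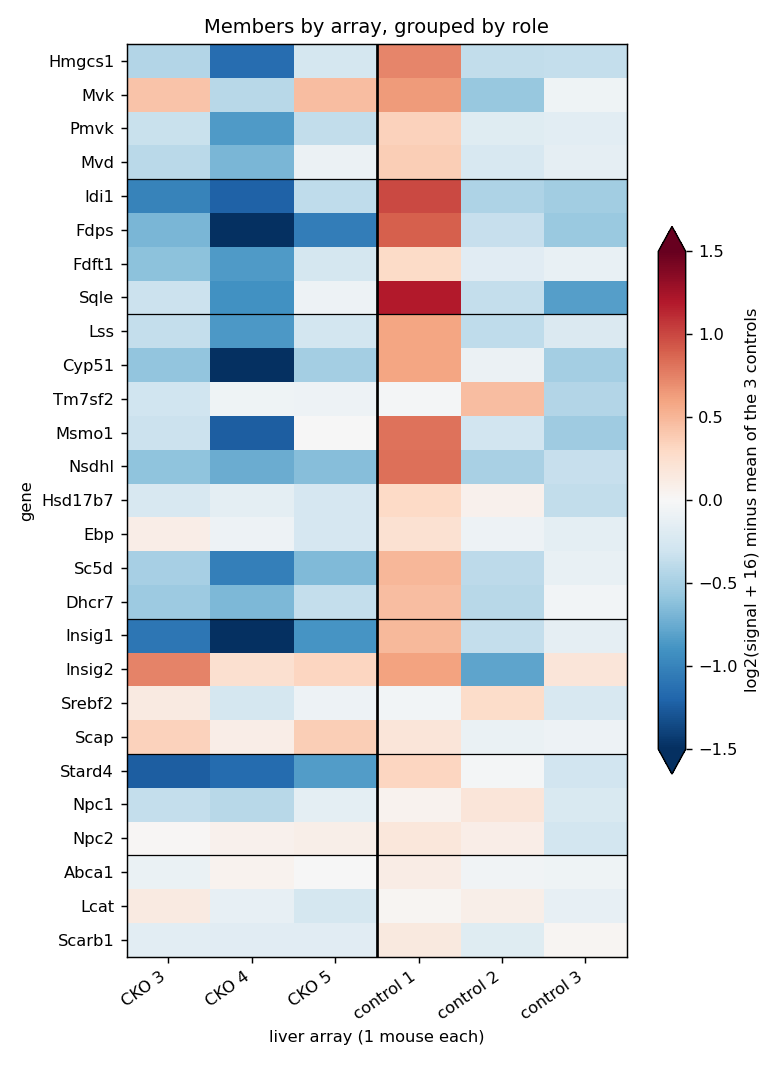
Log2 deviation of each of the 27 cholesterol genes from the control mean in the 3 CKO and 3 control livers, with genes grouped by role. The control 1 column is the highest for 21 genes and the CKO 4 column the lowest for 16.

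A score per array, the mean over the 27 genes of the log2 value minus the control mean, was -0.31, -0.66 and -0.25 in the CKO 3, 4 and 5 livers, against 0.44, -0.19 and -0.25 in the control 1, 2 and 3 livers. The scores overlapped, since the CKO 5 and control 3 livers had the same rounded value, and the control 1 liver alone stood above 0. Over the 17 enzymes the score was -0.39, -0.85 and -0.30 in CKO livers, against 0.57, -0.25 and -0.32 in control livers. The score over all 27 genes averaged -0.40 ± 0.22 in CKO livers and 0.00 ± 0.38 in control livers (SD, n = 3 each).

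Without the control 1 liver, 20 of the 27 genes still lay below the control mean, against 55.1% of all genes tested. The median of the 27 genes was then -0.20, against -0.03 over all genes, and the score difference was -0.18. In this fit 1 gene, Stard4, was called (log2 difference -0.92; limma, adjusted p = 0.0465), while 41 of all 13043 genes tested were called lower. Insig1 differed by -0.97 (adjusted p = 0.103). Of the 27 differences, 20 moved closer to 0. Without the CKO 4 liver, 22 of the 27 genes lay lower, against 50.2% of all genes. The median of the 27 was -0.25 and 0 of them were called, while 85 of all 13027 genes tested were called lower. At an unadjusted p under 0.05 in limma, 4 of the 27 were lower, and the share of all genes was not counted in this fit. Why the control 1 liver stood high in these genes was not tested.

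**Figure D4:**
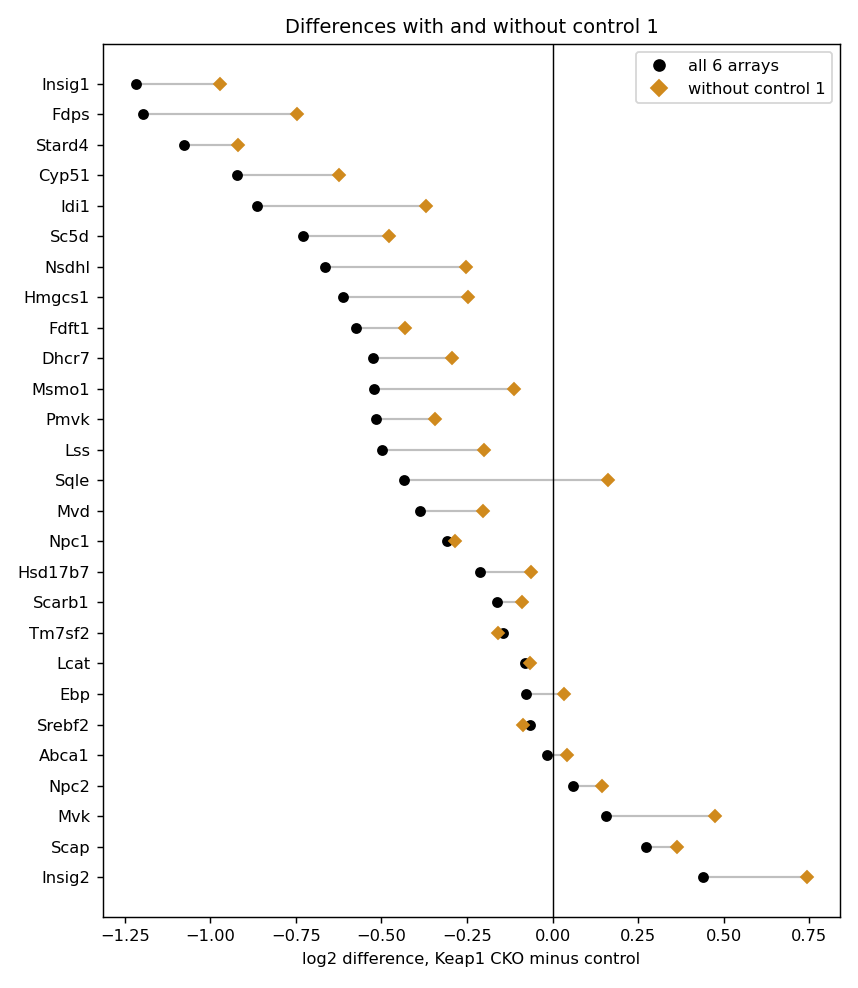
Log2 difference of CKO minus control livers for each of the 27 cholesterol genes with all arrays and without the control 1 liver. In 20 genes the difference without that liver is closer to 0, and Insig1 (-0.97) and Stard4 (-0.92) are then the lowest.

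Other genes tied to SREBP and sterols were read from companion lists. The list of fatty acid synthesis genes holds mostly known SREBP-1 targets, but also Pklr, a known target of ChREBP, and Mlxipl, the gene of ChREBP itself. Of its 16 measured genes, 15 lay below the control mean, with a median log2 difference of -0.82, and 9 were separated, all lower. Over all genes tested, 52.8% lay below the control mean, the median was -0.02 and 10.9% were separated lower. Of the 16 genes, 5 were called, all lower in CKO livers, compared with 0.944% of all genes called lower. Pnpla3 (a lipid droplet acyltransferase and lipase) fell by 1.62 (limma, adjusted p = 0.0141) and Acly (which makes cytosolic acetyl-CoA) by 1.28 (adjusted p = 0.0314). Pklr (liver pyruvate kinase) fell by 1.02 (adjusted p = 0.00590), Fads1 (a fatty acid desaturase) by 1.01 (adjusted p = 0.0485) and Elovl5 (a fatty acid elongase) by 0.83 (adjusted p = 0.0320). The score of this list was -0.68, -0.53 and -1.01 in CKO livers, against 0.18, 0.00 and -0.18 in control livers, and the groups did not overlap. The count of 5 fell to 1 without CKO 3 and to 2 without CKO 5, control 1 or control 2. The lowest liver for the fatty acid genes was CKO 5, whereas the lowest for the cholesterol genes was CKO 4.

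**Figure D5:**
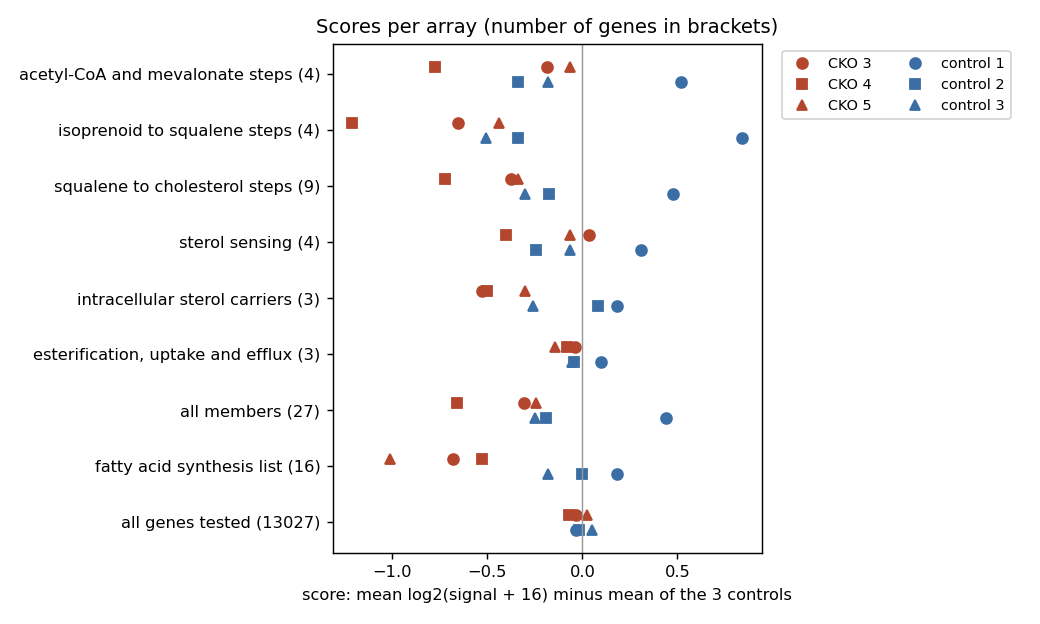
Score per array (mean log2 deviation from the control mean) of each role group, of the 27 cholesterol genes, of the fatty acid synthesis list and of all genes tested, with the 3 CKO livers drawn above the 3 control livers in each line. The cholesterol scores of the 2 groups overlap at -0.25, and the fatty acid scores do not overlap.

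Srebf1, which encodes SREBP-1, had a signal of 6902.5, 9724.9 and 4225.9 in CKO livers, against 11164.7, 10302.1 and 9514.8 in control livers. The CKO 4 liver lay within the control range, and the log2 difference of -0.65 did not pass (limma, adjusted p = 0.264). It was the largest difference among the 8 genes of SREBP processing, of which none passed (2 higher and 1 lower at an unadjusted p under 0.05).

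Of the 9 measured genes of lipoprotein uptake, 1 was called, beside 1.04% of all genes called higher. This was Cd36, a receptor for fatty acids and modified lipoproteins, which rose. Its signal was 5371.0, 6577.1 and 4151.4 in CKO livers, against 614.3, 1986.8 and 615.1 in control livers. Every CKO liver lay above every control liver, with a log2 difference of 2.51 ± 0.41 (SE; limma, adjusted p = 0.0204), or 5.71-fold higher. The call was kept in 1 of the 6 fits that left out 1 array, that without control 2, and was lost in the other 5 with adjusted p up to 0.0708.

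In the remaining lists no gene passed. Abcg5, a transporter that exports sterols into bile, had the largest difference among 10 genes of LXR, the oxysterol receptor, and its targets (1 higher and 0 lower at an unadjusted p under 0.05). Its signal was 5109.9, 6323.4 and 6160.6 in CKO livers, against 4683.9, 2653.6 and 2589.3 in control livers, and the groups were separated. The log2 difference was 0.87 (limma, adjusted p = 0.0891), and without the control 1 liver it was 1.15 (adjusted p = 0.00710). That fit was the only 1 of 19 alternatives that called Abcg5. The other fits that left out 1 array had adjusted p between 0.161 and 0.227. Among 10 genes of isoprenoid side branches Pdss2, a subunit of the enzyme that makes the ubiquinone tail, had the largest difference at -0.54 (adjusted p = 0.197), with 1 gene higher and 2 lower at an unadjusted p under 0.05. Among 11 other sterol transport proteins it was Tspo, the mitochondrial translocator protein, at 0.27 (adjusted p = 0.384), with 0 genes at an unadjusted p under 0.05 in either direction.

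Markers of liver cell types were read beside these genes. No marker tested in the 6 lists was called by limma, no measured marker was at or under a signal of 16 on all arrays, and 3 leukocyte and 2 cholangiocyte markers were too dim to be tested. At an unadjusted p under 0.05, 2 hepatocyte, 2 macrophage and 1 endothelial marker were higher and 1 stellate marker was lower. In the higher direction the groups were separated for 5 of the 8 measured hepatocyte markers, for the leukocyte markers Cd79a and Cd79b, and for Marco and Lyve1. In the lower direction they were separated for the stellate marker Reln. Over all genes tested, 10.3% were separated in the higher and 10.9% in the lower direction. Marco, a macrophage scavenger receptor, had a signal of 769.6, 491.9 and 387.3 in CKO livers, against 298.4, 98.6 and 224.8 in control livers (log2 difference 1.40, adjusted p = 0.111). Lyve1, a marker of sinusoidal endothelium, had a signal of 739.0, 705.2 and 1393.9 in CKO livers, against 238.1, 331.9 and 582.1 in control livers (log2 difference 1.29, adjusted p = 0.108). Of the 8 endothelial markers, however, 3 lay above and 5 below the control mean, with a median log2 difference of -0.02. Lyve1 is part of the endothelial sum given below. Of the 11 macrophage markers, 8 lay above and 3 below the control mean, with a median of 0.21. Summed hepatocyte marker signal was 205398 to 231282 in CKO livers, against 182104 to 207899 in control livers. The macrophage sum (11 of 11 markers measured) was 16270.5 to 21354.1 in CKO livers, against 11647.4 to 20252.9 in control livers. The endothelial sum (8 of 8) was 7142.3 to 7697.9 in CKO livers, against 6938.1 to 7173.1 in control livers, and the leukocyte sum (11 of 11) was 2842.6 to 3409.6 in CKO livers, against 2711.1 to 3156.2 in control livers. The stellate sum (8 of 8) was 10393.1 to 11835.1 in CKO livers, against 11064.1 to 13455.2 in control livers, and the cholangiocyte sum (5 of 7) was 257.8 to 528.1 in CKO livers, against 312.6 to 1318.4 in control livers. The part of these differences in the cholesterol results was not tested.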

How the data were processed

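The authors deposited 1 linear intensity value per probe set and array, measured on biotin-labelled RNA per the labels' protocols. Names of the summarisation software and of the genome build were not given in the sources used here. With 2% of probe sets trimmed from either end, all 6 arrays averaged 500, so the deposited values had been scaled to a common target, and a change in total RNA would not be seen. Between 11.9% and 16.5% of values on an array lay under 16, and correlations between arrays were 0.967 to 0.973 within and 0.956 to 0.962 between groups.

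Values were taken as log2(signal + 16), which understates the change of dim genes. A probe set was tested where its mean log2 value was at or above the 40th percentile (27022 of 45101, with 64 control probe sets left out), and each gene was read from its brightest probe set with 1 symbol. The planned rule spoke of mean signal, and brightness by the linear mean was run as an alternative chosen after seeing the data. CKO and control groups, taken from the labels, were compared by two-sided moderated tests in limma 3.58.1 under R 4.3.3, where lmFit was followed by eBayes with its trend option. Adjustment was by Benjamini-Hochberg over 13027 genes, at a threshold of 0.05. The fit was tested on simulated data. Other probe sets of a gene were tested in a fit over all 27022 probe sets. The replicate labels do not say that mice came from separate cages or litters, so p-values measure only the spread between these arrays. Precision is limited by the number of arrays, and with 3 against 3 the smallest p an exact permutation test of 1 gene allows is 0.1.

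All 29 cholesterol genes are named. Values on every array are given for those called, for those whose groups did not overlap and for the largest difference of each role. Of each companion list the called genes, or else the largest difference, are named. The genes, role groups and lists were chosen with earlier results of these data known. Alternatives covered the filter, the offset, the normalization, the variance model, the probe set rule and leaving out each array. Promoters are RefSeq windows of GRCm38.p6.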

Additional observations from a re-analysis of the deposited data

How the results depend on the processing

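The count of genes called was 258 over all genes (135 higher and 123 lower), 77 without the variance trend and 94 to 173 when 1 array was left out. Scaling to the hybridisation controls moved the median of all genes to -0.20 and put 25 of the 27 cholesterol genes below control, beside 79.0% of all genes. Median centring moved that median to 0.08 and put 19 of the 27 below, beside 37.7% of all genes. Relative to the median of all genes, the cholesterol median was -0.42 in both and without either. The count of cholesterol genes called was 2, and it was 1 without a filter, with median centring, with cyclic loess and with the robust variance model, 0 without the variance trend (6 lower at an unadjusted p under 0.05 in limma), and 0 to 1 when 1 array was left out. Cholesterol genes with separated groups numbered 7, all lower, beside 10.9% of all genes lower. They numbered 12, all lower, with hybridisation controls, where 24.5% of all genes were separated lower, and 8 to 13 when 1 array was left out, where 14.5% to 18.9% of all genes were. These counts include 2 higher genes without control 1, and 1 higher gene without CKO 4 and with median centring. The median log2 difference of the cholesterol genes lay between -0.62 and -0.20 and the score difference between -0.59 and -0.18 over all alternatives, below 0 throughout. Insig1 was called in 7 and Stard4 in 15 of 19 alternatives, both lower in CKO livers in each. Sc5d was called in 2 of 19. These were the setting with hybridisation controls, where it was read from its brightest probe set, and that with the mean over its probe sets. Over the alternatives, 18 of 510 single-gene values took the other sign, none of them of a called gene. The 5 calls of the fatty acid list became 2 without a filter and with median centring and 1 without the variance trend, and Cd36 lost its call without the variance trend (adjusted p = 0.0830) and with the robust model (adjusted p = 0.0815). Keap1 lost its call whichever control array was left out, since it was then read from its other probe set. Causes of these changes were not tested. No paired analysis was possible because the labels name no pairs of CKO and control mice. With 3 mice a group, the number of arrays limits which differences could pass.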
